A study of Mus musculus with 6 samples.

Results

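The genes that make, sense and break down prostaglandin E2 were followed in intestinal adenomas of Apc mutant mice. The members were 10 genes of the pathway, found by matching the Ensembl identifiers of the gene count table to the GENCODE M21 symbols *Pla2g4a*, *Ptgs2*, *Ptges*, *Ptges2*, *Ptges3*, *Ptger1*, *Ptger2*, *Ptger3*, *Ptger4* and *Hpgd*. They were 10 of the 34866 genes in the table, and 10 of 10 passed the filter on low counts, which left 16536 genes for testing. RNA sequencing had been carried out on adenomas excised from Apc1322T/+ and ApcMin/+ mice of the C57BL/6J strain, aged between 100 and 120 days, with 3 libraries of each genotype. The comparison asked how adenomas that arise with these truncating alleles of Apc differ in their RNA. Both alleles are carried in the germline in the heterozygous state, and the genotypes list no transgene and no Cre driver. Per the study, each ApcMin adenoma arises from a single epithelial cell through loss of heterozygosity at Apc. It describes the Apc1322T truncation, unlike that of ApcMin, as keeping sites that bind beta-catenin and part of the function in lowering it. As both alleles truncate the protein, the level of Apc RNA is no check of the labels. Per the methods, RNA of several extractions from 1 mouse was typically pooled for a sample. No normal mucosa and no wild-type mouse was analysed here, so each level is that of adenoma tissue and each difference is one between the genotypes.

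Prostaglandin E2 is made from arachidonic acid, which a phospholipase A2 releases from membranes, a cyclooxygenase converts to the unstable intermediate prostaglandin H2, and a terminal synthase turns into the final product. It leaves the cell, binds 4 G-protein-coupled receptors, EP1 to EP4, on the same or neighbouring cells, and is inactivated by 15-hydroxyprostaglandin dehydrogenase. In the intestine the pathway is known for the inducible cyclooxygenase, whose inhibition or loss lowers the number of polyps in Apc mutant mice, and for the loss of the inactivating enzyme in many colorectal tumours.

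The promoter windows of the genes that carry the main findings are printed here, to show the start regions of the release enzyme, the cyclooxygenase and the synthase that were highest in the same library, of the leading receptor, and of the enzyme of breakdown. Each is the RefSeq window of GRCm38.p6, from 250 bases before to 50 bases after the annotated start, written in the direction of the gene. Windows were found for 9 of the 10 members, and there was none for *Ptger1*. The windows lie at chr1:149961241-149961540 on the minus strand for *Pla2g4a* (the first of its 2 annotated starts), at chr1:150099781-150100080 on the plus strand for *Ptgs2*, at chr2:30903248-30903547 on the minus strand for *Ptges*, at chr15:5244138-5244437 on the minus strand for *Ptger4* and at chr8:56294302-56294601 on the plus strand for *Hpgd*. Capitals mark matches, on either strand, to the TATA box (TATAAA), the CCAAT box (CCAAT), the GC box (GGGCGG), the core of the cyclic AMP response element (TGACG), AP-1 (TGANTCA), the E-box (CACGTG) and the TCF/LEF motif (CTTTGAT).
Pla2g4a: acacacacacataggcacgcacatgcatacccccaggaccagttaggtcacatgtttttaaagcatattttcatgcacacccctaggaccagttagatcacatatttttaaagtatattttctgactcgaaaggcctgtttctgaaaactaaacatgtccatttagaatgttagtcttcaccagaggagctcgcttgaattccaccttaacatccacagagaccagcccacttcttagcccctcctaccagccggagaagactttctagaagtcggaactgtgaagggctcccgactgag
Ptgs2: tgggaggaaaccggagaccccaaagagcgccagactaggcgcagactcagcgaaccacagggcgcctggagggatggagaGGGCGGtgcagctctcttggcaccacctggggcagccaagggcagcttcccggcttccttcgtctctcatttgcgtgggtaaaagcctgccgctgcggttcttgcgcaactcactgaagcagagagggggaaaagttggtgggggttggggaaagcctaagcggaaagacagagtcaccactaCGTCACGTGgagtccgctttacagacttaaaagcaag
Ptges: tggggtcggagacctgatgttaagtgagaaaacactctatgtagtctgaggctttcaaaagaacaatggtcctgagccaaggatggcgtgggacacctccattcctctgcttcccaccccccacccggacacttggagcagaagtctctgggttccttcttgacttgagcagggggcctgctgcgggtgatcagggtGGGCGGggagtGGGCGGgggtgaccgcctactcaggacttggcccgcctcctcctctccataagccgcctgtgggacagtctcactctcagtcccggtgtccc
Ptger4: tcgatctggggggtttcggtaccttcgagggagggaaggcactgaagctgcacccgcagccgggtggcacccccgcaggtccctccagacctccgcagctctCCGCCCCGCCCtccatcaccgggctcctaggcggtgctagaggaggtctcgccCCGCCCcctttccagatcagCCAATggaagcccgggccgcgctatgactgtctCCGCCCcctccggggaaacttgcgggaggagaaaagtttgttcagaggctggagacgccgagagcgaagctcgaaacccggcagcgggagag
Hpgd: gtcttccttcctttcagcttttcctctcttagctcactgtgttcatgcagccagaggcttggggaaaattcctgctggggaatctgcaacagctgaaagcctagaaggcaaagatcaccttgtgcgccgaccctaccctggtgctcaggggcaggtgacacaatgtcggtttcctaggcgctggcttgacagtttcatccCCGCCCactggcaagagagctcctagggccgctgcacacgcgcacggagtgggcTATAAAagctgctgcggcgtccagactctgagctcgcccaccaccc

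The *Ptgs2* window held a GC box from its base 81, and a cyclic AMP response element core from base 264 that shares letters with an E-box from base 267. These last matches begin 13 and 16 bases after the annotated start. The printed *Pla2g4a* window held 0 matches to these motifs, while the *Ptges* window held 2 GC boxes. The window of the other annotated *Pla2g4a* start, not printed, held a TATA box match and a CCAAT box. The *Ptger4* window held 4 GC boxes, of which the first pair overlap, together with a CCAAT box. The *Hpgd* window was the only one of the 5 printed with a TATA box match, beside a single GC box. That TATA box match begins 4 bases after the annotated start, not before it. Of all 32851 windows of this length, 13.6% held the TATA box, 37.4% the CCAAT box, 35.7% the GC box, 20.8% the response element core, 7.81% AP-1, 7.15% the E-box and 3.73% the TCF/LEF motif. None of the 5 printed windows held the AP-1 or TCF/LEF letters. These matches describe the letters and were not tested for binding or activity.

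Library totals ran from 23132461 to 33518324 estimated counts. A floor of 3 counts was equal to between 0.0838 and 0.143 CPM (counts scaled to 1000000 per library after TMM normalisation), a limit that covers counting error only. Markers of the epithelium summed to between 10600 and 15500 CPM, and no listed marker of any cell type was at 0 in every library. The tissue held stroma as well as epithelium. Some libraries stood apart in these markers. ApcMin replicate 1 was highest for 8 of 10 fibroblast markers (summed 3650 CPM, against 854 to 1810 in the other libraries), for 9 of 9 macrophage markers (572 against 181 to 255 CPM) and for 7 of 8 neutrophil markers (179 against 24.9 to 80.8 CPM). Apc1322T replicate 1 and ApcMin replicate 3 were lowest for the summed distal small intestine markers (100 and 96.4 CPM, against 240 to 509) and mast cell markers (181 and 169 CPM, against 406 to 1320). In such bulk samples fewer cells of a type and less RNA per cell cannot be told apart.

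No member differed between the genotypes beyond the spread of the libraries. In edgeR (quasi-likelihood test, p-values adjusted by Benjamini and Hochberg over the 16536 genes tested), 0 of 10 members had an adjusted p under 0.01, where the background over all genes was 0%. At an unadjusted p under 0.05 the count was also 0 of 10, beside 15.1% of all genes tested (7.49% higher and 7.60% lower in ApcMin). The 3 libraries of one genotype lay entirely above those of the other for 0 of 10 members, beside 21.0% of all genes. DESeq2 called 0 of 10 members at an adjusted p under 0.01, against 1.12% of the 17346 genes it tested. The fitted value was higher in ApcMin for 6 members and lower for 4, with log2 fold changes (ApcMin minus Apc1322T throughout) between -0.35 for *Ptger4* and 0.82 for *Ptger1* and a median of 0.11, where the median of all genes tested was 0.017. For 4 members the log2 fold change was smaller than its own standard error.

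**Figure D1:**
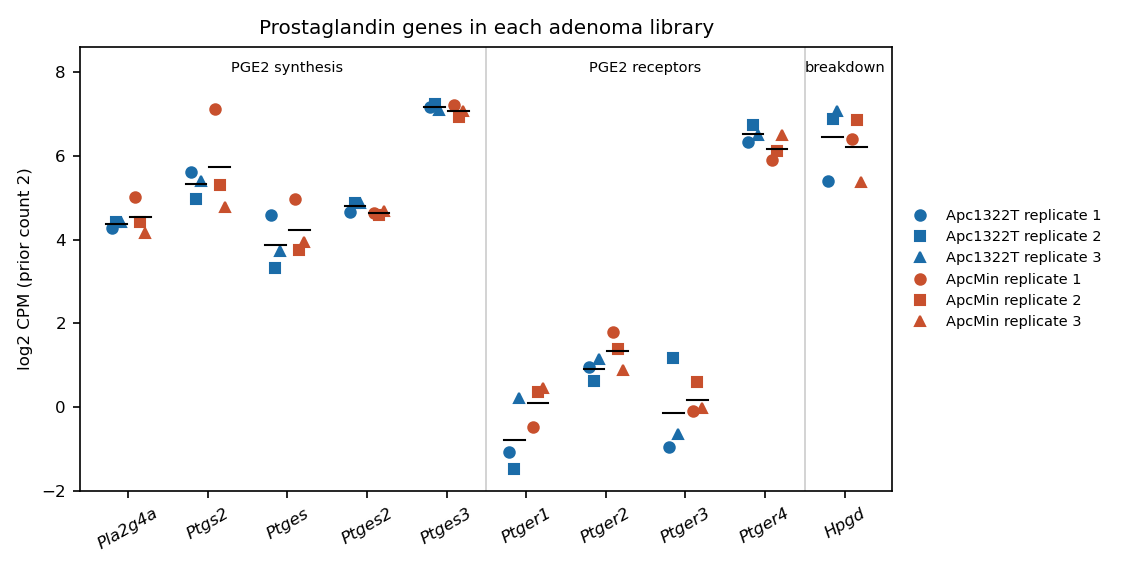
Each point is the log2 CPM (prior count 2) of a member in 1 library, blue for Apc1322T and orange for ApcMin, with marker shape for the replicate number and a black line at the mean of each genotype. The genotypes overlap for 10 of 10 members, and ApcMin replicate 1 stands above the other libraries for *Ptgs2*, at 7.12 against 4.79 to 5.62.

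The release and cyclooxygenase steps were highest in a single library. *Pla2g4a* encodes cytosolic phospholipase A2 alpha, the main enzyme that frees arachidonic acid for prostaglandin synthesis in stimulated cells. Its level was 4.28, 4.42 and 4.43 log2 CPM in Apc1322T replicates 1, 2 and 3, and 5.03, 4.41 and 4.15 log2 CPM in ApcMin replicates 1, 2 and 3. A single ApcMin library thus lay above all others and another lay below all others, with the 3 Apc1322T libraries close together between them (SD 0.083, against 0.45 in ApcMin). The log2 fold change of *Pla2g4a* was 0.20 (SE 0.23, edgeR adjusted p = 0.676).

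*Ptgs2* encodes cyclooxygenase 2, the inducible enzyme that commits arachidonic acid to the prostaglandins. It was counted 1335, 658 and 959 times in Apc1322T replicates 1, 2 and 3 and 4983, 1008 and 872 times in ApcMin replicates 1, 2 and 3. Scaled, this gave 5.62, 4.97 and 5.39 log2 CPM in Apc1322T (mean 5.33 ± 0.33, SD, n = 3) and 7.12, 5.31 and 4.79 log2 CPM in ApcMin (mean 5.74 ± 1.2, SD, n = 3). The highest and the lowest library were both ApcMin, and they differed 5.05-fold in CPM (139 against 27.6), the widest span of the 10 members. The other ApcMin library lay within the range of the Apc1322T libraries. The log2 fold change was 0.76 (SE 0.61, edgeR adjusted p = 0.560), and the exact two-sided permutation test over libraries gave p = 0.9, where 3 against 3 allows no p under 0.1.

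The *Ptgs2* difference turned with 1 library. Without ApcMin replicate 1 the log2 fold change of *Ptgs2* was -0.28 (SE 0.25, edgeR adjusted p = 0.639), that of *Pla2g4a* -0.09 (SE 0.13, adjusted p = 0.781) and that of *Ptges* -0.14 (SE 0.39, adjusted p = 0.896). Leaving out that library thus turned the sign of all 3 values.

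The terminal synthases differed in their variability. *Ptges* encodes microsomal prostaglandin E synthase 1, the inducible synthase that acts downstream of cyclooxygenase 2. It stood at 4.59, 3.32 and 3.73 log2 CPM in Apc1322T replicates 1, 2 and 3 and at 4.97, 3.75 and 3.94 log2 CPM in ApcMin replicates 1, 2 and 3. Replicate 1 was the highest of its group in both genotypes, and the groups overlapped (log2 fold change 0.35, SE 0.45, edgeR adjusted p = 0.721).

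*Ptges2* encodes the membrane-associated synthase 2, and *Ptges3* the cytosolic synthase, better known as the Hsp90 co-chaperone p23. For *Ptges2* the libraries lay at 4.67, 4.88 and 4.87 log2 CPM in Apc1322T and at 4.64, 4.60 and 4.68 log2 CPM in ApcMin. For *Ptges3* they lay at 7.16, 7.24 and 7.10 log2 CPM in Apc1322T and at 7.21, 6.92 and 7.06 log2 CPM in ApcMin. These 2 genes were the steadiest members, the highest library exceeding the lowest 1.21-fold for *Ptges2* and 1.25-fold for *Ptges3* in CPM, against 3.17-fold for *Ptges*. The *Ptges2* libraries overlapped by a single one, ApcMin replicate 3 lying just above Apc1322T replicate 1. Their log2 fold changes were -0.17 (SE 0.10, edgeR adjusted p = 0.429) and -0.10 (SE 0.10, adjusted p = 0.637).

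The share of the inducible synthase varied between libraries. Of the CPM per kilobase of exon summed over the 3 synthases, *Ptges* made up 8.09, 3.29 and 4.74% in Apc1322T replicates 1, 2 and 3 and 10, 5.42 and 5.62% in ApcMin replicates 1, 2 and 3. *Ptges3* held the bulk in every library, between 83.8 and 89.1%, and *Ptges2* between 6.18 and 8.13%. The share of *Ptges* was highest in replicate 1 of each genotype and lowest in Apc1322T replicate 2.

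Among the receptors 1 gene dominated. *Ptger4* encodes EP4, which couples to stimulatory G protein and raises cyclic AMP. It stood at 6.34, 6.74 and 6.51 log2 CPM in Apc1322T replicates 1, 2 and 3 and at 5.90, 6.12 and 6.49 log2 CPM in ApcMin replicates 1, 2 and 3. A pair of ApcMin libraries lay below all Apc1322T libraries, while ApcMin replicate 3 lay within their range. With a log2 fold change of -0.35 (SE 0.17, unadjusted p = 0.0878, adjusted p = 0.381), *Ptger4* had the smallest p of the 10 members by edgeR's quasi-likelihood test. Without ApcMin replicate 3 its value was -0.53, at an unadjusted p under 0.05 and an edgeR adjusted p of 0.475, and leaving out any library in turn left it between -0.53 and -0.22.

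*Ptger2* encodes EP2, which also couples to stimulatory G protein. It was counted 51, 31 and 49 times in Apc1322T and 121, 65 and 56 times in ApcMin, or 0.96, 0.63 and 1.15 against 1.79, 1.39 and 0.88 log2 CPM for replicates 1, 2 and 3. A pair of ApcMin libraries lay above the Apc1322T libraries, and ApcMin replicate 3 lay among them (log2 fold change 0.49, SE 0.33, edgeR adjusted p = 0.483). Without ApcMin replicate 1 the value was 0.24 (SE 0.33, edgeR adjusted p = 0.779). The 2 receptors of the same coupling thus had opposite signs, but neither difference passed the test.

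*Ptger1* and *Ptger3*, which encode EP1 and EP3, were close to the limit of detection. EP1 signals through calcium and EP3 mainly through inhibitory G protein. *Ptger1* was counted 11, 6 and 25 times in Apc1322T and 23, 31 and 41 times in ApcMin, and *Ptger3* 12, 46 and 13 times in Apc1322T and 31, 37 and 29 times in ApcMin. These counts are above the floor of 3 in every library, but they vary widely, and Apc1322T replicate 2 held both the lowest *Ptger1* and the highest *Ptger3* count. Their log2 fold changes were 0.82 (SE 0.58, edgeR adjusted p = 0.511) and 0.03 (SE 0.65, adjusted p = 0.986). The *Ptger1* value ran from 0.49 without Apc1322T replicate 2 to 1.58 without Apc1322T replicate 3 (edgeR unadjusted p = 0.0276, adjusted p = 0.573). The *Ptger3* value changed sign without Apc1322T replicate 1 (-0.35), without Apc1322T replicate 3 (-0.28) or without ApcMin replicate 2 (-0.24).

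*Ptger4* shares 11676 bases with *Ttc33* on the opposite strand, which was counted between 574 and 947 times. The libraries were made with a directional kit, but the strand setting of the quantification is not given in the sources used here, so how far reads of *Ttc33* enter the *Ptger4* counts was not tested.

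Of the CPM per kilobase summed over the 4 receptors, *Ptger4* made up 96.0, 95.7 and 95.1% in Apc1322T replicates 1, 2 and 3 and 90.7, 91.5 and 94.8% in ApcMin replicates 1, 2 and 3. *Ptger2* made up 2.83, 1.69 and 2.86% and 6.59, 4.31 and 2.39% in the same order. Here the *Ptger4* share was lower in each ApcMin library than in each Apc1322T library, although ApcMin replicate 3 came within 1 point of Apc1322T replicate 3. *Ptger4* exceeded *Ptger2* per kilobase 33.9, 56.5 and 33.3-fold in Apc1322T and 13.8, 21.2 and 39.7-fold in ApcMin, and in this ratio the genotypes overlapped. The shares and ratios were given no test of their own.

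*Hpgd*, the gene of the enzyme that inactivates prostaglandin E2, fell into high and low libraries within each genotype. It was counted 1155, 2456 and 3095 times in Apc1322T replicates 1, 2 and 3 and 3023, 2958 and 1318 times in ApcMin replicates 1, 2 and 3. Scaled, this gave 5.41, 6.87 and 7.08 log2 CPM in Apc1322T and 6.40, 6.86 and 5.38 log2 CPM in ApcMin. The lowest values belonged to Apc1322T replicate 1 and ApcMin replicate 3, which matched each other more closely than either matched its own group. The log2 fold change of *Hpgd* was -0.28 (SE 0.52, edgeR adjusted p = 0.810), and it changed sign without Apc1322T replicate 3 (0.020) or without ApcMin replicate 3 (0.031). Without Apc1322T replicate 1 it was -0.63 (SE 0.45, edgeR adjusted p = 0.440).

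**Figure D2:**
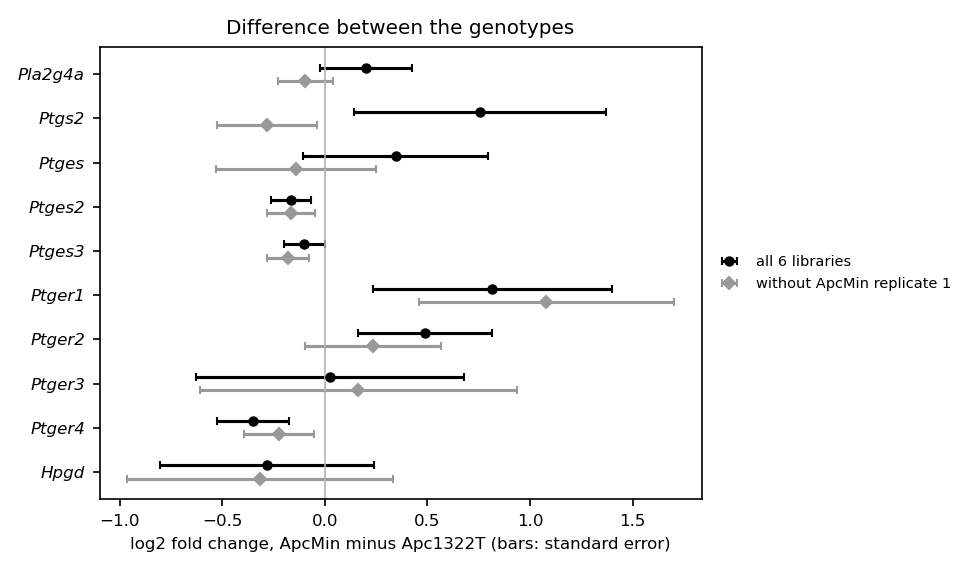
Log2 fold change of each member, ApcMin minus Apc1322T, with its standard error from edgeR as a bar, for all 6 libraries (black circles) and without ApcMin replicate 1 (grey diamonds). The values of *Ptgs2*, *Ptges* and *Pla2g4a* move from 0.76, 0.35 and 0.20 to -0.28, -0.14 and -0.09.

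The members spanned a wide range of abundance. Levels between genes were compared as CPM per kilobase of exon, averaged over the 6 libraries. *Ptges3* (62.6) and *Hpgd* (53.2) were the most abundant, followed by *Ptger4* (12.5) and *Ptgs2* (12.0), then *Ptges2* (5.23), *Ptges* (4.54) and *Pla2g4a* (3.49), and last *Ptger2* (0.423), *Ptger3* (0.188) and *Ptger1* (0.151). The ranges over libraries overlapped between *Ptges3* and *Hpgd*, between *Ptger4* and *Ptgs2*, among *Ptges2*, *Ptges* and *Pla2g4a* for each pair of neighbours, and among the last 3 receptors likewise. They did not overlap between *Hpgd* (lowest 24.8) and *Ptger4* (highest 16), between *Ptgs2* (lowest 6.02) and *Ptges2* (highest 5.82), or between *Pla2g4a* (lowest 2.77) and *Ptger2* (highest 0.651). Beyond neighbours, *Ptgs2* reached up to 30.4, into the range of *Hpgd*, and *Ptges* up to 7.96, into that of *Ptgs2*. With the longest annotated transcript as the length, *Pla2g4a* moved from rank 7 to rank 5 and the ranks of *Ptges2* and *Ptges* each dropped by 1. The gaps between ranges also depend on the length. *Ptger4* has 6648 bases of exon union but 3771 in its longest transcript, and *Hpgd* has 1683 in both. With the longest transcript, the highest *Ptger4* library lies above the lowest *Hpgd* library, and *Pla2g4a* reaches into the range of *Ptgs2*.

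**Figure D3:**
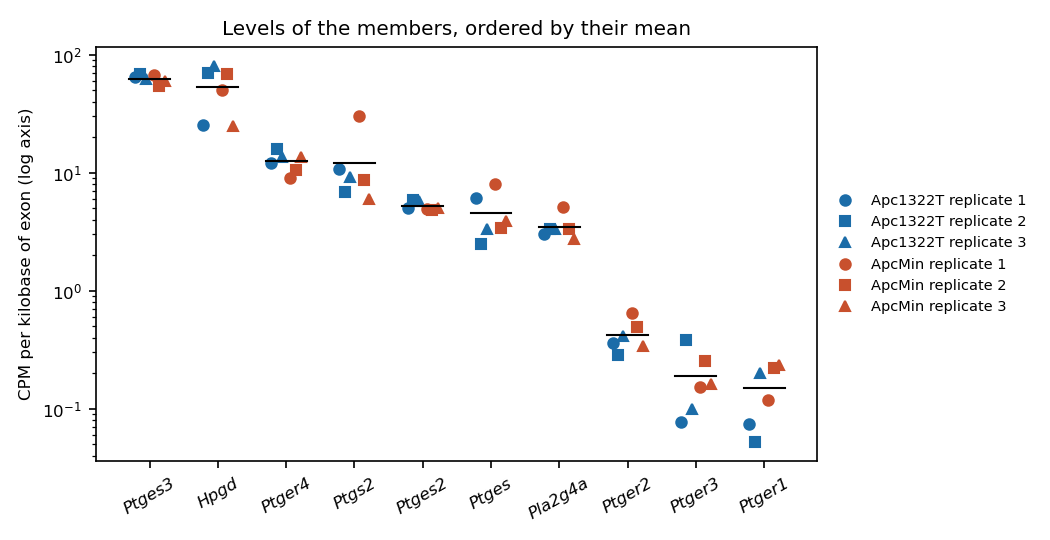
CPM per kilobase of exon of each member in each library, on a log axis, ordered by the mean over the 6 libraries (black line). *Ptges3* and *Hpgd* lead at 62.6 and 53.2, and the 3 minor receptors lie at 0.423, 0.188 and 0.151.

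The balance of synthesis and breakdown followed single libraries. The ratio of *Ptgs2* to *Hpgd* per kilobase was 0.425, 0.0985 and 0.114 in Apc1322T replicates 1, 2 and 3 and 0.606, 0.125 and 0.243 in ApcMin replicates 1, 2 and 3. It was below 1 in every library, highest in replicate 1 of each genotype, and overlapped between the genotypes. The ratio of *Ptgs2* to *Ptgs1*, the gene of the constitutive cyclooxygenase 1, was 2.25, 1.65 and 2.02 in Apc1322T and 4.98, 1.23 and 0.786 in ApcMin. By exon union, the RNA of *Ptgs2* thus exceeded that of *Ptgs1* per kilobase in 5 of the 6 libraries, the exception being ApcMin replicate 3. This count depends on the length used. The exon union and longest transcript are 3884 and 2867 bases for *Ptgs1*, and 4580 and 4453 bases for *Ptgs2*. With the longest transcript each ratio is lower, and that of ApcMin replicate 2 also falls below 1.

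ApcMin replicate 1 was the highest library for 4 of the 10 members, namely *Pla2g4a*, *Ptgs2*, *Ptges* and *Ptger2*, and for 15.2% of all genes tested. Apc1322T replicate 2 was the highest for 4 others, *Ptges2*, *Ptges3*, *Ptger3* and *Ptger4*, and for 19.3% of all genes tested. Relative to the mean of the 6 libraries, *Ptgs2* stood 1.59 higher in ApcMin replicate 1 on the log2 CPM scale, *Ptges* 0.93 and *Pla2g4a* 0.58. In that library the summed neutrophil markers stood 1.67 above their own mean, the fibroblast markers 1.25 and the macrophage markers 1.23. In Apc1322T replicate 1, *Ptges* (0.55) and the neutrophil markers (0.52) were both second highest. In ApcMin replicate 3, *Ptgs2* was at its lowest (-0.75) while these markers were near their means (0.08, 0.13 and 0.06). The part of these cell types in the levels of the members was not tested.

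For *Hpgd* the low libraries were those with the lowest summed distal small intestine and mast cell markers. Relative to the means, *Hpgd* stood at -0.93 in Apc1322T replicate 1 and -0.95 in ApcMin replicate 3, the distal markers at -1.22 and -1.27, and the mast cell markers at -1.31 and -1.41. *Mcpt1* and *Mcpt2* weigh most in the mast cell sum. The mast cell marker *Kit* was highest in ApcMin replicate 3 (47.4 CPM), while the other mast cell markers listed were lowest in these same libraries. Of the 9 enterocyte markers, 6 were lowest in ApcMin replicate 3, and for 4 of these (*Fabp2*, *Vil1*, *Sis* and *Anpep*) Apc1322T replicate 1 was the next lowest, as for *Hpgd*. The brush border peptidase gene *Anpep*, for one, stood at 262, 1720 and 2610 CPM in Apc1322T and at 964, 1300 and 137 CPM in ApcMin. Other enterocyte markers went another way. *Apoa4* and *Fabp1* were lowest in ApcMin replicate 1. *Alpi* was lowest in ApcMin replicate 2 (785 CPM) and stood at 2230 CPM in ApcMin replicate 3. The sum of the 9 markers, in which *Apoa1* and *Apoa4* weigh most, was lowest in ApcMin replicate 1 (-0.81) and next lowest in ApcMin replicate 3 (-0.68). The part of tissue position and cell types in the *Hpgd* level was not tested.

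**Figure D4:**
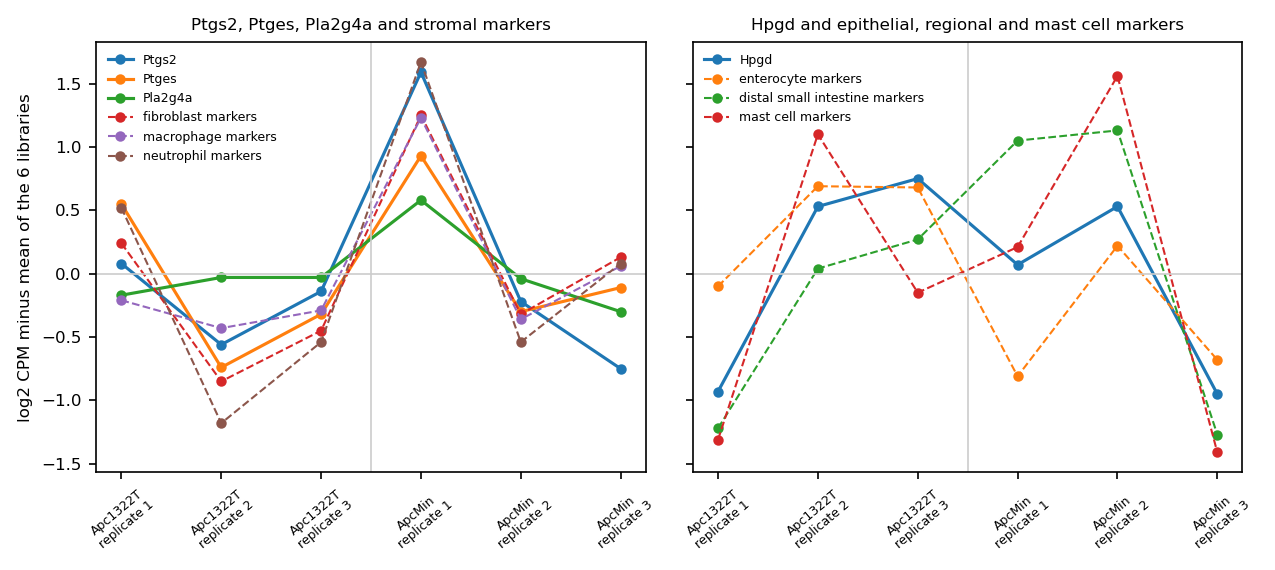
Log2 CPM minus the mean of the 6 libraries, for members (solid lines) and for summed cell type or regional markers (dashed lines), with Apc1322T left and ApcMin right of the grey line; lines join libraries for reading only. In the left panel *Ptgs2* (1.59) and the neutrophil (1.67), fibroblast (1.25) and macrophage (1.23) markers peak in ApcMin replicate 1, and in the right panel *Hpgd*, the distal and the mast cell markers are lowest in Apc1322T replicate 1 and ApcMin replicate 3.

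Among 12170 genes with a mean log2 CPM of at least 2, those most like *Ptgs2* were found by the root mean square difference of the centred log2 CPM over the 6 libraries. The 5 nearest were *Emilin2* (0.172), an extracellular matrix glycoprotein, *Serpine2* (0.197), a serine protease inhibitor, *Timp1* (0.203), an inhibitor of matrix metalloproteinases, *Rgs16* (0.206), a regulator of G protein signalling, and *Plek* (0.225), a substrate of protein kinase C in blood cells. The root mean square deviation of *Ptgs2* itself was 0.76. Of the other members, *Ptges* (0.433) and *Pla2g4a* (0.52) came closest, at percentiles 0.657 and 1.68 of the genes compared, and *Hpgd* (0.994) and *Ptger4* (0.996) lay far, at percentiles 92.6 and 92.7. Each of the 5 nearest genes was highest in ApcMin replicate 1 like *Ptgs2*, which follows from the measure that chose them.

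The genes nearest to *Hpgd* by the same measure were *Slc10a5* (0.0878), of the bile acid transporter family, *Phlpp2* (0.0928), a phosphatase of Akt, *Maf* (0.103), a basic leucine zipper transcription factor, *Fmo4* (0.107), a flavin-containing monooxygenase, and *Igsf9* (0.131), a member of the immunoglobulin superfamily. The deviation of *Hpgd* itself was 0.694. *Maf* was counted 922, 2359 and 2854 times in Apc1322T and 2909, 2438 and 1172 times in ApcMin. That it was low in the same libraries as *Hpgd* follows from the measure that chose it. Of the other members *Pla2g4a* (0.644) and *Ptges2* (0.65) came closest to *Hpgd*, at percentiles 27.2 and 28.7 of the genes compared. A gene at the same level in every library would give 0.694, so these values show little likeness.

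*Ptgs2* and *Pla2g4a* are neighbours on chromosome 1 of GRCm38 and point away from each other, with 139 kb between their starts. The 3 genes annotated between them, *Gm19136*, *Gm44329* and *Ptgs2os*, are not protein-coding and summed to 0 counts in every library, or were not in the table. Both neighbours were highest in ApcMin replicate 1 and lowest in ApcMin replicate 3, though *Pla2g4a* spanned 1.84-fold in CPM against 5.05-fold for *Ptgs2*.

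The rest of the prostanoid pathway was described from a list of 38 genes by role, of which 37 were found and 30 tested. By edgeR's quasi-likelihood test 0 of 30 had an adjusted p under 0.01, and 7 of 30 (23.3%) had an unadjusted p under 0.05, beside 15.1% of all genes. Of these, 5 were higher and 2 lower in ApcMin. The median log2 fold change of the 30 genes was -0.04, against 0.017 over all genes, and the genotypes did not overlap for 8 (26.7%, beside 21.0%), 5 of them higher.

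The group of cyclooxygenase 1 and other prostanoid synthases held 5 of these 7 genes. *Ptgs1* was counted 503, 339 and 402 times in Apc1322T and 848, 696 and 941 times in ApcMin, each ApcMin library above each Apc1322T library (log2 fold change 0.63, SE 0.12, edgeR adjusted p = 0.257). *Ptgis*, the prostacyclin synthase, had a value of 1.38, *Tbxas1*, the thromboxane synthase, 1.06, and *Hpgds*, the prostaglandin D synthase of haematopoietic cells, 0.79. *Cbr1*, a carbonyl reductase that can act on prostaglandin E2, had a value of -0.57. None of the 5 passed at an adjusted p under 0.01 by edgeR (adjusted p between 0.257 and 0.302). The most abundant of the group per kilobase was *Akr1b8*, an aldo-keto reductase (62.7 CPM per kilobase, log2 fold change -0.61, SE 0.26, edgeR adjusted p = 0.338).

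Beside these values, macrophage markers were higher in ApcMin for 8 of 9 genes, 6 of them at an unadjusted p under 0.05, with summed levels of 181 to 211 CPM in Apc1322T and 190 to 572 CPM in ApcMin. Without ApcMin replicate 1, 8 of 9 were still higher, 0 of them at an unadjusted p under 0.05, while *Ptgs1*, *Ptgis*, *Tbxas1* and *Cbr1* stayed under 0.05 by edgeR and *Hpgds* did not. Markers of other stromal and immune cells were also mostly higher in ApcMin, but T cell markers were lower for 6 of 8. Fibroblast markers were higher for 9 of 10, smooth muscle for 8 of 8 and endothelium for 8 of 8 (4 without ApcMin replicate 1). For neutrophils it was 8 of 8 (3 without that library), and for mast cells 10 of 10. B and plasma cell markers were higher for 5 of 6. The summed mast cell markers overlapped, at 181 to 962 CPM in Apc1322T and 169 to 1320 CPM in ApcMin. By edgeR, 3 fibroblast, 2 smooth muscle, 1 endothelial, 0 neutrophil and 1 mast cell marker were higher at an unadjusted p under 0.05. T cell and B and plasma cell markers had 0 at that p. Over all genes tested, 7.49% were higher at that p. The fibroblast marker *Fbln1* was lower in ApcMin (log2 fold change -0.52, edgeR unadjusted p = 0.00927). Tuft cell markers, among which *Hpgds* is counted, were higher for 9 of 9, with 185 to 277 CPM in Apc1322T and 230 to 271 CPM in ApcMin. Of these, 2 had an unadjusted p under 0.05 by edgeR, namely *Hpgds* itself and *Sh2d6*. The part of these cells in the synthase levels was not tested.

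Among the genes of transport and breakdown, *Abcc4*, an exporter of prostaglandins, was counted 932, 432 and 480 times in Apc1322T and 1711, 1560 and 2562 times in ApcMin. Each ApcMin library lay above each Apc1322T library (log2 fold change 1.33, SE 0.27, edgeR adjusted p = 0.257). The most abundant gene of the group was *Ptgr1*, a prostaglandin reductase (84.8 CPM per kilobase, log2 fold change -0.23, SE 0.10, edgeR adjusted p = 0.337). By DESeq2, *Abcc4* (adjusted p = 0.000538) and *Ptgs1* (adjusted p = 0.00986) passed the threshold of 0.01 that they missed by edgeR.

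Of the other phospholipases A2, 15 were tested and 1, *Pla2g10*, had an unadjusted p under 0.05 (log2 fold change -0.51, SE 0.15, edgeR adjusted p = 0.279). That share of 6.67% lay below the 15.1% of all genes tested. *Pla2g2a* was the most abundant of them, at 376 CPM per kilobase, with 8.94, 8.24 and 8.16 log2 CPM in Apc1322T and 8.10, 8.21 and 8.80 log2 CPM in ApcMin (log2 fold change -0.09, SE 0.28, edgeR adjusted p = 0.891). The receptors of the other prostanoids were scarce. The most abundant, *Tbxa2r* for thromboxane, stood at 0.662 CPM per kilobase (log2 fold change 0.75, SE 0.39, edgeR adjusted p = 0.397). Of the 3 tested, 0 had an unadjusted p under 0.05 by edgeR, beside the same 15.1% of all genes.

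**Figure D5:**
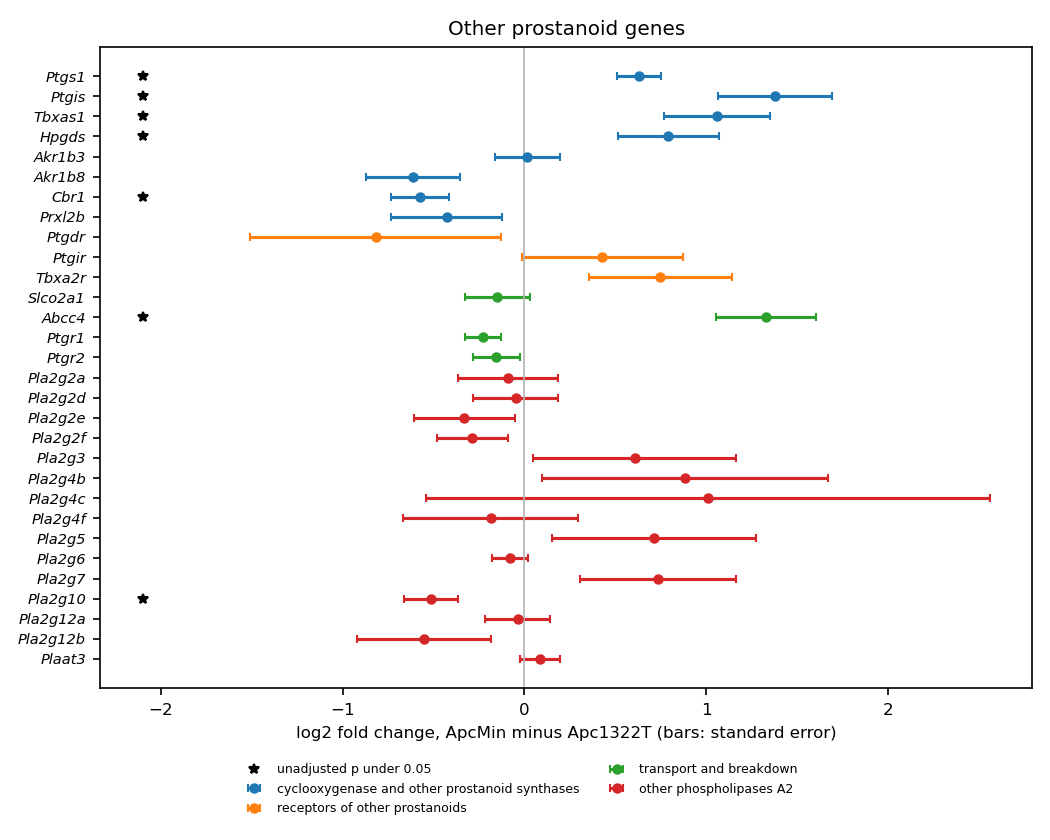
Log2 fold change, ApcMin minus Apc1322T, of the 30 other prostanoid genes tested, coloured by role, with the standard error from edgeR as bars and a star for an unadjusted p under 0.05. *Ptgis* (1.38) and *Abcc4* (1.33) have the largest values, and *Pla2g4c* the widest bar.

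The leukotriene branch, which uses the same arachidonic acid, was taken from a list of 13 genes, 11 of them tested. Here 0 of 11 passed at an adjusted p under 0.01 and 3 of 11 (27.3%) had an unadjusted p under 0.05 by edgeR, each lower in ApcMin, beside 15.1% of all genes in either direction and 7.60% lower. They were *Lta4h*, the leukotriene A4 hydrolase and the most abundant of the list (24.7 CPM per kilobase, log2 fold change -0.41, SE 0.14, edgeR adjusted p = 0.288), and the leukotriene B4 receptors *Ltb4r1* (-0.62) and *Ltb4r2* (-0.85). The median over the 11 genes was 0.48, of opposite sign, and 7 of the 11 values were above 0. Without Apc1322T replicate 2 or Apc1322T replicate 3, the count at an unadjusted p under 0.05 was 1, *Ltb4r2*. Epithelial markers were lower in ApcMin for 6 of 6 genes, with 13100 to 15500 CPM in Apc1322T and 10600 to 12300 CPM in ApcMin, and their part in these values was not tested.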

How the data were processed

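RNA of 3 Apc1322T and 3 ApcMin adenoma samples was sequenced. Per the labels, groups follow the genotype in the sample titles. The authors quantified the reads with Salmon against the GRCm38 transcriptome and deposited estimated counts per gene, neither scaled for depth nor for length, of which 31.1% are not whole. Here they were rounded, joined to GENCODE M21 (34652 of 34866 genes matched), filtered with filterByExpr (minimum count 10, minimum total 15), scaled by TMM and tested in edgeR 4.0.16 (R 4.3.3; quasi-likelihood, robust) with Benjamini-Hochberg adjustment, at 0.01 as in the study. Log2 CPM used a prior count of 2. Levels between genes were divided by the union of exons. The strand setting of Salmon is not given in the sources used here. Total counts of 23132461 to 33518324 mean that counting error matters most for *Ptger1*, *Ptger2* and *Ptger3*. Neither the labels nor the methods state that the 3 samples of a genotype are different mice, so the p-values measure only the spread between these samples.

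The members and lists were chosen with earlier results of these data known. The genes named are the members, the listed prostanoid and leukotriene genes at an unadjusted p under 0.05, the most abundant of each role group, the 5 genes nearest to *Ptgs2* and to *Hpgd*, and genes overlapping a member (not all of them are reported here). *Pla2g4c* and the markers of cell types were named after their values were seen or for the check of the tissue. Of the listed genes, *Ptgr3* was not matched. Alternatives were DESeq2 1.42.0, limma-voom (limma 3.58.1), DESeq2 size factors, upper quartile scaling, no filter, a prior count of 0.5, the longest transcript as length, the replicate number as a block and each library left out. The marker lists without ApcMin replicate 1 were added after seeing the data. The procedures were tested on simulated data.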

Additional observations from a re-analysis of the deposited data

How the results depend on the processing

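The count of members with an adjusted p under 0.01 was 0 under every alternative run. With all 6 libraries, the 10 log2 fold changes had the same sign in 60 of 60 values over the other tests, scalings and filter and the replicate block. With a library left out, 52 of 60 kept their sign and 8 reversed. Without ApcMin replicate 1 these were *Pla2g4a* (-0.094), *Ptgs2* (-0.281) and *Ptges* (-0.139), and left-out values ranged from -0.094 to 0.375, from -0.281 to 1.13 and from -0.139 to 0.803. *Ptger3* reversed without Apc1322T replicate 1 (-0.349), Apc1322T replicate 3 (-0.275) or ApcMin replicate 2 (-0.243), and ranged from -0.349 to 1.09. *Hpgd* reversed without Apc1322T replicate 3 (0.0204) or ApcMin replicate 3 (0.0312), and ranged from -0.639 to 0.0312. *Ptger1* ranged from 0.494 to 1.58 and *Ptger2* from 0.236 to 0.697. The cause was not tested.

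The count of members at an unadjusted p under 0.05 was 0, and 0 to 1 with a library left out (*Ptges2* without Apc1322T replicate 1, *Ptger1* without Apc1322T replicate 3, *Ptger4* without ApcMin replicate 3). With the replicate block it was 1, *Ptges* (0.341, SE 0.118, edgeR unadjusted p = 0.0368, adjusted p = 0.377), and *Ptgs2* was 0.416 there and by limma-voom. The sample titles number the replicates and name no pairing. Deviations from the genotype mean had correlations of -0.014, 0.164 and -0.286 between same-numbered libraries. With a single library per genotype and number, these values cannot decide whether the numbers pair the libraries. Other prostanoid genes called at an adjusted p under 0.01 numbered 0, and 2 by DESeq2 (*Ptgs1*, *Abcc4*). At an unadjusted p under 0.05 they numbered 6 to 8 with a library left out, and leukotriene genes 1 to 4. With 3 libraries per genotype, the counts of *Ptger1* and *Ptger3* (6 to 46) limit the precision of those genes.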

Other observations

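*Pla2g2a*, the secreted phospholipase A2 of the intestine and a known modifier of polyp number in ApcMin mice, carries a frameshift in the C57BL/6 strain, yet its RNA was the most abundant of the prostanoid genes listed here. It was counted between 6350 and 14076 times per library, and its level did not separate the genotypes.

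*Pla2g4c*, which encodes cytosolic phospholipase A2 gamma, spanned the widest range of the listed prostanoid genes and was chosen after its values were seen. It was counted 266, 844 and 4235 times in Apc1322T replicates 1, 2 and 3 and 3680, 9320 and 104 times in ApcMin replicates 1, 2 and 3. The lowest libraries, Apc1322T replicate 1 and ApcMin replicate 3, were those in which *Hpgd* and the summed distal small intestine markers were lowest. Its log2 fold change was 1.01 (SE 1.55, edgeR adjusted p = 0.769), and the part of tissue position was not tested.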
